A study of Homo sapiens with 3 samples.

Results

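The EIF4G family consists of 3 paralogous genes, EIF4G2, EIF4G1 and EIF4G3, and their m6A regions made up 61 of the 41836 regions listed for nuclear RNA of the human breast cancer line MDA-MB-231. Members were selected on the deposited region positions: a region was assigned to a gene when its midpoint, on either strand, fell in a fixed hg19 interval: 10818 to 10831 kb of chromosome 11 for EIF4G2 (minus strand, 19 regions), 184032 to 184054 kb of chromosome 3 for EIF4G1 (plus strand, 23 regions) and 21132 to 21504 kb of chromosome 1 for EIF4G3 (minus strand, 19 regions). The genes were proposed with the list in view, so the numbers of regions are descriptions. An anti-m6A antibody raised in rabbit was used to pull down RNA of the nuclear fraction in 2 libraries and rabbit IgG in 1 library, all from cells of this line with no treatment named in the labels. The deposited list is for the series as a whole, with no read count, height or value for a single library. There is thus no replicate error for any value below, no m6A to IgG ratio, and no test over samples.

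N6-methyladenosine (m6A), a methyl group carried by internal adenosines of RNA, is written while transcripts are being made, mainly by the METTL3 and METTL14 complex. eIF4G proteins are scaffolds of translation initiation. EIF4G1 encodes the main scaffold, which holds the cap-binding protein eIF4E, the helicase eIF4A, the poly(A)-binding protein and eIF3 together and so brings the small ribosomal subunit to capped mRNA. EIF4G3 encodes a closely related scaffold with the same partners, also called eIF4GII. EIF4G2 encodes the shorter protein DAP5 (also p97 or NAT1), which lacks the part that binds eIF4E and is known for initiation that does not need it.

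The spliced mRNAs of the 3 genes already differ at their start. In GENCODE release 29, the coding sequence of the representative transcript opened with GTG in EIF4G2 and with ATG in EIF4G1 and EIF4G3, and 99.85% of 18892 protein-coding genes opened with ATG. The first 30 coding bases are shown with the start codon in capitals, because the start codon of EIF4G2 is unusual. A link between start codon and m6A regions was not tested.
EIF4G2: GTGgagagtgcgattgcagaagggggtgct
EIF4G1: ATGaacaaagctccacagtccacaggcccc
EIF4G3: ATGaattcacaacctcaaacccgttctccg

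The best known m6A context has the core GGAC. The motif GGACT and its variants that end in A (GGACA) or in C (GGACC), which cannot overlap each other, together occurred 17 times in the 2721 coding bases of EIF4G2, 21 times in the 4818 of EIF4G1 and 20 times in the 4863 of EIF4G3. This came to 6.25 motifs per kb in EIF4G2, 4.36 in EIF4G1 and 4.11 in EIF4G3, against a median of 3.95 over all 18892 coding sequences, of which 95.3% held at least 1. In coding sequence, the density of EIF4G2 was above that of 82.3% of genes, and those of EIF4G1 and EIF4G3 above 57.3% and 53.0%. On the opposite strand of the same coding sequences (AGTCC for the first motif, TGTCC for the variant in A and GGTCC for the variant in C, each of which can overlap a coding-strand motif by at most 1 letter), the density was 1.47 per kb in EIF4G2, 2.28 in EIF4G1 and 2.67 in EIF4G3, with a median of 2.75 over all genes. The order depended on the stretch and the motif. Over the whole representative mRNA, EIF4G1 came first with 5.31 motifs per kb (above 82.7% of genes), against 4.75 in EIF4G2 (75.5%) and 4.51 in EIF4G3 (71.8%). GGACT alone was densest in the coding sequence of EIF4G3, with 1.65 per kb, against 1.10 in EIF4G2 and 1.04 in EIF4G1. No paralog was thus the most motif-rich by every count.

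For each gene, the first stretch of 100 coding bases to reach its highest number of motifs is printed, with the motifs in capitals. It shows where such letters crowd, and later stretches may hold as many. These stretches begin at coding base 1031 in EIF4G2, 2045 in EIF4G1 and 211 in EIF4G3.
EIF4G2: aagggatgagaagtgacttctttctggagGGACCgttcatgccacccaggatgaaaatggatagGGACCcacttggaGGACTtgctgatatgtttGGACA
EIF4G1: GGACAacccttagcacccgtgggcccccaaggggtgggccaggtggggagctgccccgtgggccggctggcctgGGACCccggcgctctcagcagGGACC
EIF4G3: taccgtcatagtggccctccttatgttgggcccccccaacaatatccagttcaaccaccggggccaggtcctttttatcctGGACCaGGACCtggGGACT
The stretch of EIF4G2 held 4 motifs, a number reached within 100 bases in 4.92% of all coding sequences. Those of EIF4G1 and EIF4G3 held 3 each, reached in 25.7%. These shares take no account of the length of the coding sequences. The middle part of the EIF4G2 coding sequence, between its first and last part of equal length, held 10 of the 17 motifs, and that of EIF4G1 held 9 of 21 and that of EIF4G3 7 of 20. These sequences are GENCODE transcripts. The regions are placed on hg19, no hg19 sequence was used, and so whether a given m6A region holds any of these motifs was not examined.

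The m6A regions were dense at EIF4G2 and EIF4G1 and sparse at EIF4G3. EIF4G2 had 1.46 regions per kb of its 13-kb interval (95% exact Poisson interval 0.880 to 2.28), EIF4G1 had 1.05 per kb of 22 kb (0.663 to 1.57), and EIF4G3 had 0.0511 per kb of 372 kb (0.0308 to 0.0798). The intervals of EIF4G2 and EIF4G1 overlapped widely, and both lay far above that of EIF4G3. They cover counting error only and treat regions as independent, which neighbours in a transcript are not. EIF4G2 ranked above EIF4G1 by a factor of 1.40. This order turned when regions up to 500 nt apart were joined (0.615 per kb in EIF4G2 and 0.636 in EIF4G1). It also turned when the intervals were widened by 10 kb on each side (0.576 and 0.667). That widening takes in 5 regions upstream of EIF4G1, the nearest 5.24 kb outside its interval, and none at EIF4G2. Whether these 5 regions belong to a neighbouring gene was not examined. EIF4G3 was lowest under all 10 alternatives computed.

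The share of the interval that m6A regions covered separated the genes further. Regions covered 2082 nt or 16.0% of the EIF4G2 interval, 1815 nt or 8.25% of the EIF4G1 interval and 872 nt or 0.234% of the EIF4G3 interval. EIF4G2 thus had 1.94 times the covered share of EIF4G1. Its regions were both denser (1.46 against 1.05 per kb) and wider (mean 109.6 against 78.9 nt). The order of the 3 genes in covered share was the same under all 10 alternatives computed, all of which divide by genomic length. Set against the length of the representative mRNA, the covered length came to 52.0% in EIF4G2, 32.1% in EIF4G1 and 15.1% in EIF4G3. The genes were far closer on that base, which does not say that regions lie in exons.

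**Figure D1:**
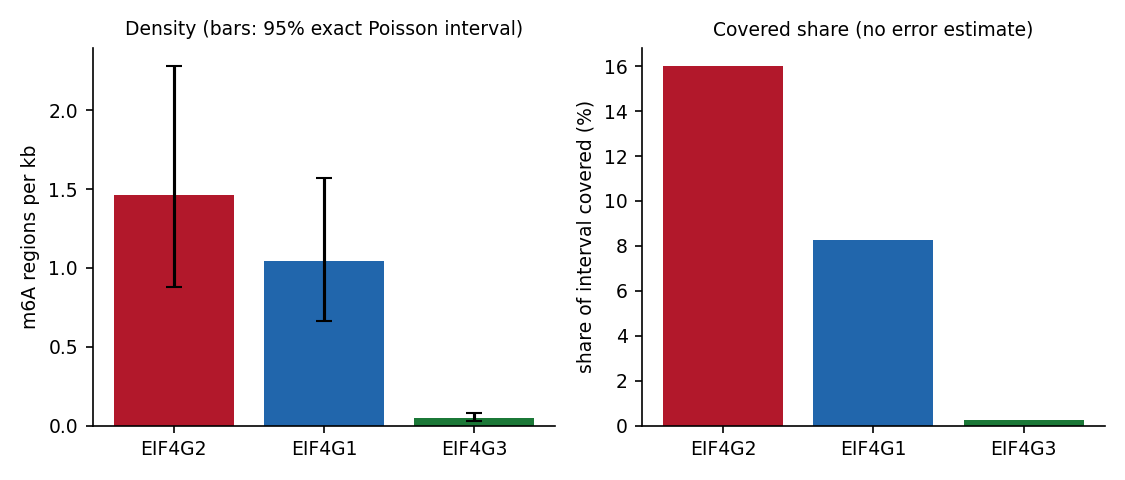
m6A regions per kb of interval (left; error bars are 95% exact Poisson intervals, counting error only) and percent of the interval covered by regions (right; no error estimate) for EIF4G2, EIF4G1 and EIF4G3. EIF4G2 and EIF4G1 have overlapping intervals at 1.46 and 1.05 regions per kb, and EIF4G3 lies near 0 in both panels at 0.0511 regions per kb and 0.234% covered.

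The genes differ far more in total length than in exon length. GENCODE 29 (GRCh38, lengths only) gives 12.1 kb for EIF4G2 (ENSG00000110321), 20.9 kb for EIF4G1 (ENSG00000114867) and 371 kb for EIF4G3 (ENSG00000075151). Joined over all transcripts (32 in EIF4G2, 38 in EIF4G1 and 14 in EIF4G3), the exons of the genes are of like length. They come to 8.66 kb in EIF4G2, 8.26 kb in EIF4G1 and 9.60 kb in EIF4G3. Set against that exon length, the number of regions came to 2.20 per kb in EIF4G2, 2.79 in EIF4G1 and 1.98 in EIF4G3, and EIF4G1 rather than EIF4G2 stood first. Against the length of the representative mRNA the values were 4.75 per kb in EIF4G2, 4.07 in EIF4G1 and 3.30 in EIF4G3. So the genes were far closer per kb of exon than per kb of gene. These ratios do not say that regions lie in exons, which was not examined because the annotation used here is in another build. The introns differ too: their median length in the representative transcript is 185 nt in EIF4G2, 219 nt in EIF4G1 and 3778.5 nt in EIF4G3, whose longest intron has 87.0 kb.

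Nearly all regions were listed on the strand of their gene. It held 18 of 19 regions at EIF4G2 (94.7%, 95% exact binomial interval 73.97 to 99.87%), 23 of 23 at EIF4G1 (85.2 to 100%) and 19 of 19 at EIF4G3 (82.4 to 100%). In the whole list 57.4% of regions were on the minus strand. The family therefore followed its genes on both strands, with EIF4G1 entirely plus and EIF4G3 entirely minus. The exception was a plus-strand region of 44 nt on chromosome 11 from 10828847 to 10828890, 2.13 kb from the upstream end of the EIF4G2 interval.

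**Figure D2:**
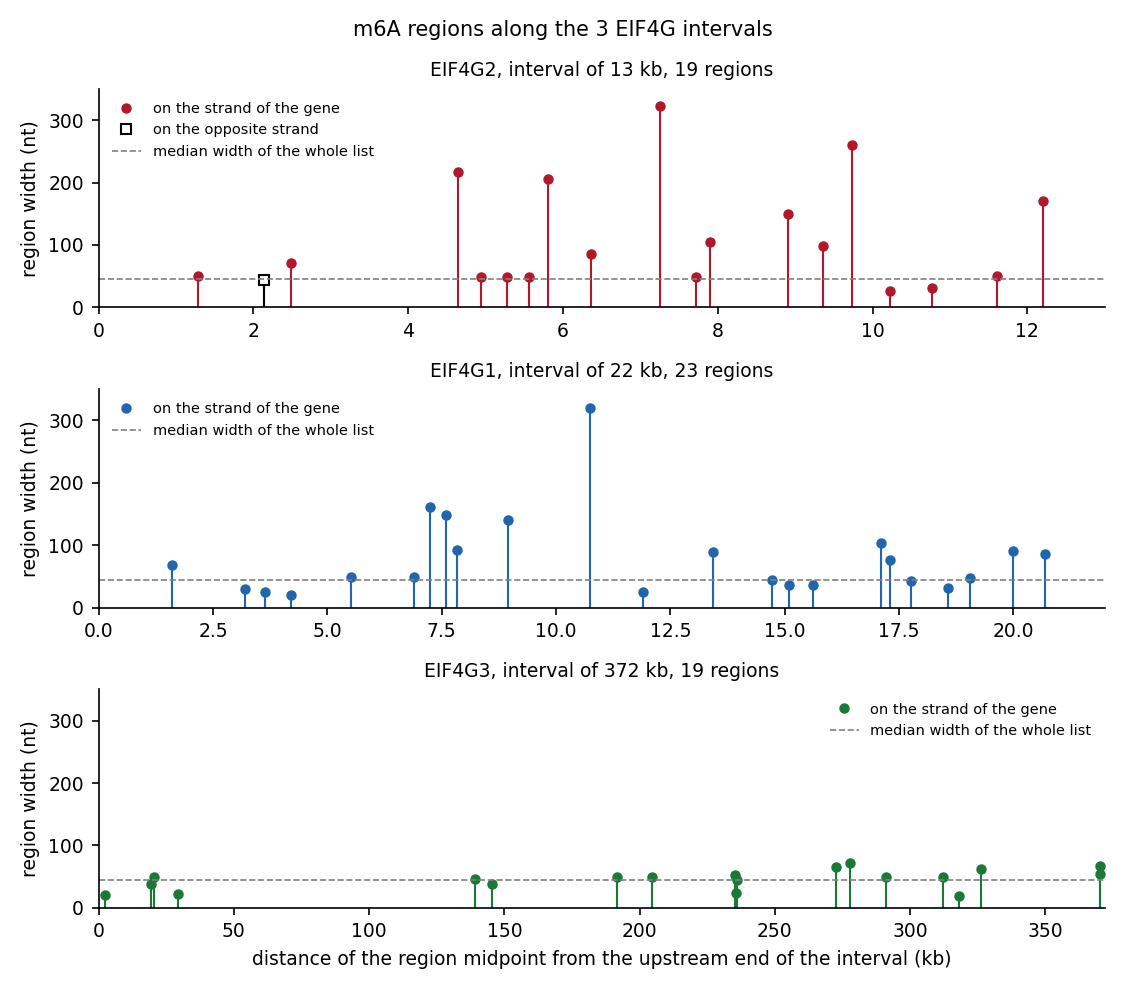
Width of each m6A region in nt (height) against the distance of its midpoint from the upstream end of the interval in kb, for EIF4G2, EIF4G1 and EIF4G3; the scale of distance differs between panels, filled circles are on the strand of the gene, the open square is on the opposite strand, and the dashed line is the median width of the whole list (45 nt). Regions of EIF4G2 crowd between 4.53 and 12.3 kb, those of EIF4G1 are spread along the interval with a peak of 320 nt, and those of EIF4G3 are narrow and far apart.

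At EIF4G2, the first 4.53 kb of the interval held few regions and the rest formed a single run when neighbours up to 1 kb apart were joined. At 0.5 kb this run broke up and its largest piece held 6 regions. On the minus strand, the region nearest the upstream end measured 50 nt and lay 1.28 kb inside the interval, from 10829697 to 10829746. A region of 71 nt followed from 10828485 to 10828555, and then came the longest gap on this strand, of 2015 nt. From 4.53 to 12.3 kb the remaining 16 regions followed each other at less than 1 kb (chromosome 11 from 10818713 to 10826469). This cluster covered 24.7% of its 7.76 kb, with 2.06 regions per kb.

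The EIF4G2 cluster held all 7 regions over 100 nt of that gene. Its widest region, of 322 nt from 10823590 to 10823911, lay at 7.25 kb, near the middle of the interval, and only 0.36% of the whole list was as wide or wider. A region of 261 nt lay from 10821141 to 10821401 and 1 of 217 nt from 10826253 to 10826469, and this last region was the most upstream of the cluster. Another region exceeded 200 nt, with 206 nt from 10825094 to 10825299. Between the regions of 217 and 206 nt stood 3 regions of exactly 49 nt, the most frequent width of the whole list. The region nearest the downstream end, from 10818713 to 10818882, was also wide at 170 nt, and its midpoint lay 0.797 kb from the end of the interval. The narrowest regions of EIF4G2, of 27 and 31 nt, lay next to each other at 10.2 and 10.8 kb.

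At EIF4G1, the regions were spread over most of the interval and fell into 4 clusters of at least 3, with gaps of at most 1569 nt between neighbours. At a joining distance of 2 kb all 23 regions formed a single cluster, so the contrast with the single run of EIF4G2 holds for 1 kb. The most upstream region, of 68 nt from 184033580 to 184033647, lay 1.61 kb inside the interval. The first cluster, from 184035188 to 184036227, held 3 narrow regions of 30, 25 and 21 nt and covered 7.31% of 1.04 kb. The next cluster, from 184038880 to 184039873, had the highest covered share of the family's clusters. Its 4 regions of 49, 161, 148 and 92 nt covered 45.3% of 0.994 kb, and it held 2 of the 3 widest regions of the gene, from 184039165 to 184039325 and from 184039519 to 184039666.

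The widest EIF4G1 region lay outside the clusters of at least 3. It measured 320 nt from 184042593 to 184042912, at 10.8 kb, with gaps of 1569 nt before it and 985 nt after it. Like the 322-nt region of EIF4G2, it lay close to the middle of its interval (48.9% of the way from the upstream end, against 55.8% for the region of EIF4G2). Nothing in the list shows whether the 2 regions cover matching parts of the paralogs. A cluster of 3 regions of 44, 37 and 36 nt followed from 184046713 to 184047637, covering 12.7% of 0.925 kb. The last cluster was the largest of the gene, with 7 regions between 184049065 and 184052746 that covered 13.0% of 3.68 kb, and its last region, of 86 nt from 184052661 to 184052746, was the nearest to the downstream end.

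EIF4G3 showed scattered regions with long empty stretches. The region nearest the upstream end, from 21501734 to 21501753, measured 20 nt and lay 2.26 kb inside the interval. After a region of 22 nt at 29.2 kb came the longest gap of the family, 110 kb (109768 nt), and the next region lay at 139 kb. The only cluster of at least 3 regions lay from 21268050 to 21268788, where regions of 53, 23 and 44 nt covered 16.2% of 0.739 kb. The widest regions were in the downstream part, with 72 nt from 21226290 to 21226361, 67 nt from 21133882 to 21133948 and 65 nt from 21231398 to 21231462. The 67-nt region and a 55-nt region, from 21133643 to 21133697, were 184 nt apart and ended the gene, after a gap of 43.9 kb. A width of 19 nt, from 21186063 to 21186081, was the smallest that the whole list contains.

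The midpoint of the interval split the regions about evenly at EIF4G2 and EIF4G1, and most regions of EIF4G3 lay downstream of it. On the upstream and downstream side of the midpoint of the interval there were 9 and 10 regions at EIF4G2, 11 and 12 at EIF4G1, and 6 and 13 at EIF4G3. The median position was 55.8% of the way from the upstream end at EIF4G2, 54.1% at EIF4G1 and 63.3% at EIF4G3. In 5 equal parts from upstream to downstream, EIF4G2 held 3, 2, 6, 5 and 3 regions, EIF4G1 held 4, 5, 3, 6 and 5, and EIF4G3 held 4, 2, 2, 6 and 5. No part was empty in any of the genes. At EIF4G2 the covered length rose to 760 nt in the middle part, against 165 nt in the most upstream and 251 nt in the most downstream part. EIF4G1 had 499 nt in the part before the middle and 486 nt in the middle part, and EIF4G3 had its highest value, 307 nt, in the part next to the most downstream.

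Regions of EIF4G2 had a higher median width than those of EIF4G1 and EIF4G3 and than the list as a whole. EIF4G2 widths ran from 27 to 322 nt with a median of 71 nt (quartiles 49 and 159.5 nt), EIF4G1 widths from 21 to 320 nt with a median of 49 nt (36.5 and 91 nt), and EIF4G3 widths from 19 to 72 nt with a median of 49 nt (38 and 54 nt). The whole list had a median of 45 nt (33 and 54 nt). The quartiles of EIF4G3 were close to those of the list, and the upper quartiles of EIF4G2 and EIF4G1 were above it. The ranges of EIF4G2 and EIF4G1 overlapped almost wholly. Intervals of at least 95% for the medians, taken from the ranked widths, overlapped too. They were 49 to 170 nt at EIF4G2, 37 to 90 nt at EIF4G1 and 38 to 55 nt at EIF4G3. Regions over 100 nt made up 7 of 19 at EIF4G2 (36.8%, 95% exact binomial interval 16.3 to 61.6%) and 5 of 23 at EIF4G1 (21.7%, 7.46 to 43.7%), against 10.3% of the whole list. EIF4G3 had 0 of 19 (0 to 17.65%), where the limit by the rule of 3 counts of the total is 15.8%. The interval of EIF4G2 lay above the share of the list. This is no test, because the genes were proposed with the list in view and neighbouring regions are not independent. The intervals of the 3 genes overlapped, which does not decide whether the genes differ.

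Neighbouring regions of EIF4G2 lay closest together. The gap between neighbours on the gene's strand had a median of 352 nt at EIF4G2 (range 103 to 2015 nt, 17 gaps), 692 nt at EIF4G1 (102 to 1569 nt, 22 gaps) and 10837 nt at EIF4G3 (184 to 109768 nt, 18 gaps), against 4686 nt in the whole list. Gaps of at most 1 kb made up 88.2% at EIF4G2, 63.6% at EIF4G1 and 22.2% at EIF4G3, against 24.6% of the list. EIF4G3 thus had its share of close neighbours near that of the list and a longer median gap. The gaps of the list run between all same-strand neighbours on a chromosome, also across genes. Those of the 3 genes lie inside each interval, so the comparison with the list is not of like gaps. The smallest gaps of EIF4G2 and EIF4G1 were close to the smallest of the whole list, 101 nt, and the deposited region names contain the word merged. Regions alone at 1 kb made up 3 of 19 at EIF4G2, 4 of 23 at EIF4G1 and 12 of 19 at EIF4G3 (63.2%), against 60.8% of the list.

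**Figure D3:**
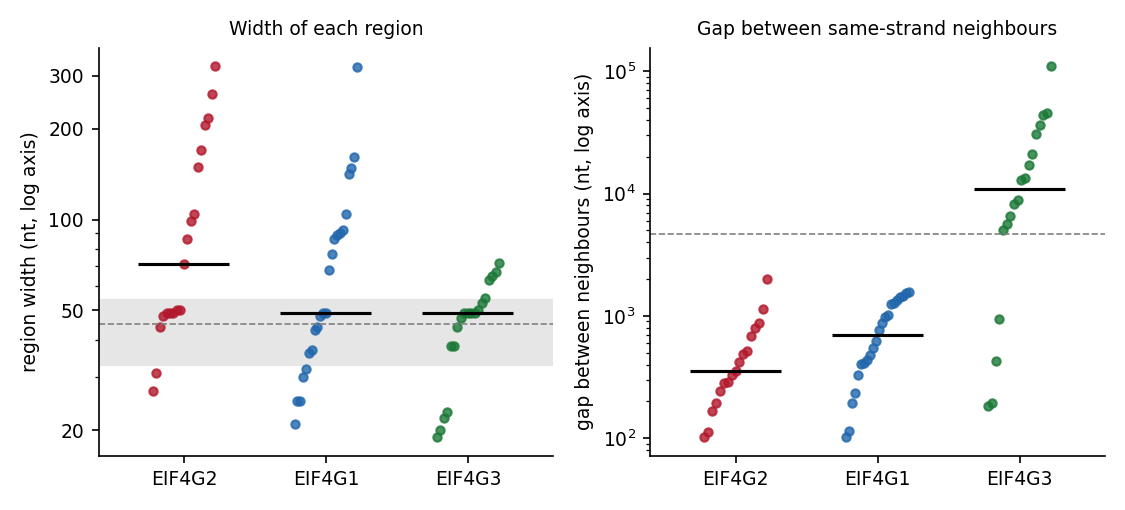
Width of each region in nt (left, log axis) and gap between neighbouring regions on the gene's strand in nt (right, log axis) for EIF4G2, EIF4G1 and EIF4G3, with black bars at the medians. The dashed lines mark the medians of the whole list (45 nt and 4686 nt) and the grey band its quartiles of width (33 to 54 nt): widths of EIF4G2 reach furthest above the band, and most gaps of EIF4G3 lie above 1 kb.

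Because the intervals differ in length, the densest 13 kb of each gene was also compared. That window held 19 regions at EIF4G2, 16 at EIF4G1 (6.1 to 19.1 kb from the upstream end) and 3 at EIF4G3 (from 235.2 kb on). It was covered to 16.0% at EIF4G2, 11.1% at EIF4G1 and 0.923% at EIF4G3. For EIF4G2 this window is the whole interval, whereas for the longer genes it is the densest of many, which favours them. Even so no 13-kb stretch of EIF4G3 came near EIF4G2 and EIF4G1. Among clusters joined at 1 kb, the EIF4G3 cluster of 3 regions had 4.06 regions per kb of its 0.739 kb. The EIF4G2 cluster of 16 regions had 2.06 per kb of its 7.76 kb, and the EIF4G1 clusters had 1.90 to 4.02 per kb. The clusters differ in length and end at their outer regions, so these densities do not rank the genes on a like scale. Counted in steps of 1 kb, 11 of 13 bins held a region at EIF4G2, 16 of 22 at EIF4G1 and 16 of 372 at EIF4G3, with at most 3 regions in a bin in each gene.

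Against the rest of the list, EIF4G2 and EIF4G1 were in its dense tail, and the place of EIF4G3 depended on the window. Windows of the length of each interval were centred on all 41836 regions of the list. Of the 13-kb windows, 1.30% (543) held 19 regions or more, and the median held 3. Of the 22-kb windows, 2.08% (868) held 23 or more, and the median held 4. Of the 372-kb windows, 49.6% held 19 or more, and the median held 18. The windows overlap and include those on the genes themselves, and being centred on regions they favour dense places. The number at EIF4G3 was thus near the median of windows of its length. The share of windows with fewer regions than EIF4G3, 50.4% here, was 34.1% with windows of 0.5 times the length, 80.2% with 2 times the length and 86.5% in tiles of the same length that held a region.

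**Figure D4:**
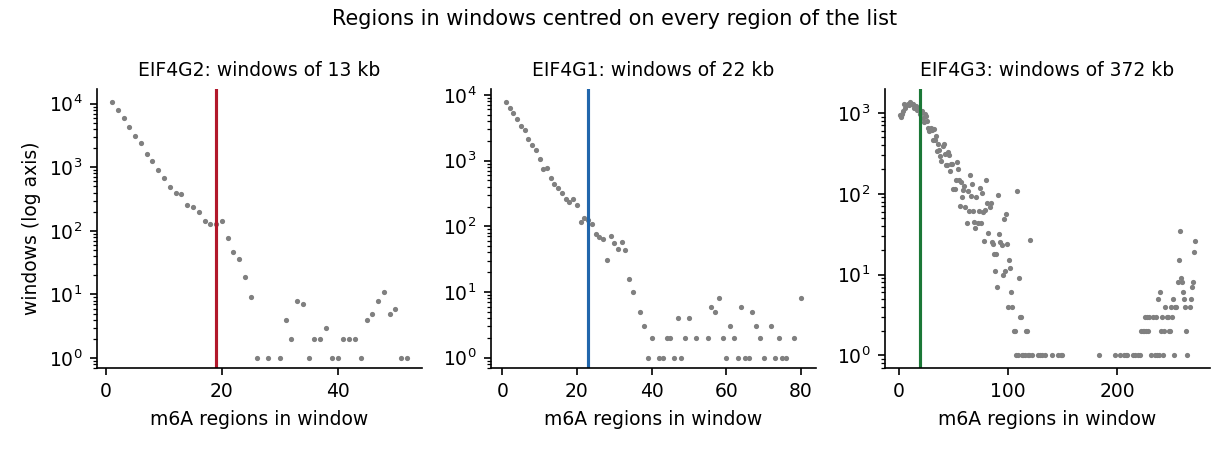
Number of windows (log axis) by the number of m6A regions they hold, for windows of 13, 22 and 372 kb centred on each of the 41836 regions; the coloured line is the number in the interval of EIF4G2 (19), EIF4G1 (23) and EIF4G3 (19). The lines of EIF4G2 and EIF4G1 lie in the right tail, with 1.30% and 2.08% of windows at or beyond them, and that of EIF4G3 lies near the median of 18.

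The EIF4G2 cluster of 16 regions was among the largest of the list at a joining distance of 1 kb. Only 7 of the list's clusters, itself included, had as many or more regions. Its size depended on that distance: at 0.5 kb the largest cluster had 6 regions in EIF4G2 and 4 in EIF4G1, and at 2 kb it had 16 in EIF4G2 and all 23 in EIF4G1. Among the 46 clusters with at least 10 regions, 8 covered a higher share of their length, and the median covered 18.4%, against 24.7% in the EIF4G2 cluster. The 3 clusters most like it by number, density and covered share together lay on chromosomes 2 and 11. The first spanned 113405742 to 113413180 of chromosome 2 (plus strand, 16 regions, 2.15 per kb, 23.4% covered). The others spanned 65659072 to 65666604 (15 regions, 1.99 per kb, 21.7%) and 65267040 to 65273374 (15 regions, 2.37 per kb, 26.3%) of chromosome 11, both on the minus strand. The likeness was the Euclidean distance over the 3 log2 values, which was 0.10, 0.21 and 0.24 for these clusters. These loci carry no gene name here, because the annotation at hand is in another build.

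The surroundings of EIF4G2 and EIF4G3 were empty, and those of EIF4G1 were empty downstream. The 10 kb on either side held no region at EIF4G2 and none at EIF4G3. The nearest regions outside lay 44.3 kb upstream and 21.2 kb downstream of EIF4G2, and 39.8 kb upstream and 19.8 kb downstream of EIF4G3. For EIF4G1, 5 regions on the plus strand lay within 10 kb upstream, the nearest 5.24 kb from the interval, and none lay within 10 kb downstream, where the nearest was 26.2 kb away. The limits of the intervals, which are rounded to kb, therefore decided no assignment at any of the genes: the regions just inside lay at least 0.797 kb from a limit and those just outside at least 5.24 kb.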

How the data were processed

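Per the labels' protocols, RNA of the nuclear fraction of MDA-MB-231 cells was immunoprecipitated with an m6A antibody (2 libraries) or IgG (1 library) and eluted with the free nucleoside. The submitters' processing notes name Bowtie2 as a tool and hg19 as the build, and the sources used here give neither the peak caller nor its thresholds nor how libraries were combined. The deposited score is 1 for every region, and the list has 0 columns for single libraries, so depth is unknown and only start, end and strand were used. Positions are printed counted from 1. The members and lists were chosen with earlier results of these data known. The regions named are the 3 widest, those nearest each end, those on the opposite strand and clusters of at least 3 joined at 1 kb; other regions in the text were named after their values were seen.

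The genes' lengths, exons and transcripts come from GENCODE 29 in GRCh38. The representative transcript was the basic, CCDS-tagged transcript with the longest coding sequence. No coordinate was compared between builds, so exon positions, motifs within regions and other initiation genes were not analysed here, nor were protein sequences. The motif count in transcripts was added after the list was seen. The intervals printed with densities and shares are exact at the 95% level and cover counting error only. The functions that assign, join and count regions were checked on simulated regions, and those for the 95% intervals were not. Alternatives changed assignment, strand, joining, limits, width and window. Python 3.11.15, numpy 2.4.6, pandas 2.3.3 and scipy 1.17.1 were used.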

Additional observations from a re-analysis of the deposited data

How the results depend on the processing

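Of 159 recomputed values, 114 kept their size within 1.5 times (counts and densities) or their counting interval, and 45 moved. These labels do not cover reversal, so changes in the order of the genes are not counted here. Joining at 100 nt could change nothing, because the smallest gap in the list is 101 nt, and its values are among the 114. The counting interval treats each nucleotide (covered share) or each overlapping window (place) as independent. It is too narrow for these 2 results, so small changes in them count as moved. Most moves follow from how the alternative is built. Joining regions up to 200 nt apart gave covered shares of 20.4% (EIF4G2), 10.1% (EIF4G1) and 0.336% (EIF4G3). Joining up to 500 nt left 8 regions in EIF4G2 (0.615 per kb, 38.9% covered, median 390.0 nt), 14 in EIF4G1 (0.636 per kb, 20.5%, 115.5 nt), and covered 0.450% of EIF4G3. Widening by 1 kb gave covered shares of 13.9% (EIF4G2) and 7.56% (EIF4G1). Widening by 10 kb gave 0.576 regions per kb and 6.31% covered in EIF4G2, and 0.667 and 4.98% in EIF4G1. Regions wider than the list median covered 15.2% of EIF4G2 (100% on its strand), 6.92% of EIF4G1 (14 regions, 0.636 per kb) and 0.180% of EIF4G3 (12 regions, 0.0323 per kb). Without 49-nt regions the covered share was 14.9% in EIF4G2, 7.80% in EIF4G1 and 0.182% in EIF4G3. From the first to the last region, an alternative chosen after seeing the data, it was 18.9% in EIF4G2 and 9.47% in EIF4G1. The largest cluster had 6 regions in EIF4G2 and 4 in EIF4G1 at 0.5 kb, and all 23 of EIF4G1 at 2, 5 and 10 kb, where EIF4G2 had 16, 18 and 18. The share of windows with fewer regions than the gene was 98.9% (EIF4G2), 95.8% (EIF4G1) and 34.1% (EIF4G3) at 0.5 times the length, 95.2%, 96.8% and 80.2% at 2 times the length, and 99.9%, 99.8% and 86.5% in tiles, also chosen after seeing the data. The middle place of EIF4G3 in the list thus depends on the window. Position in kb or as a share of the interval ranks regions alike. Leaving out a library could not be run. No paired analysis was possible because the list holds no value per library. Without read counts, the depth behind each region is unknown.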

Other observations

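GENCODE 29 places small RNA genes inside all 3 family members in GRCh38: SNORD97, a box C/D small nucleolar RNA, on the strand of EIF4G2, SNORD66, of the same class, on the strand of EIF4G1, and the microRNA gene MIR1256 on the strand of EIF4G3. CTR9, which encodes a subunit of the PAF1 transcription elongation complex, overlaps EIF4G2 on the opposite strand. Whether the plus-strand m6A region at EIF4G2 lies within CTR9, or any region at a small RNA gene, was not examined, because the regions are in hg19. The nearest protein-coding gene before EIF4G1 is PSMD2, which encodes a proteasome subunit and is read from the same strand, at 5.44 kb. Whether the 5 regions upstream of the EIF4G1 interval lie in PSMD2 was not examined.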
